A study of Mus musculus with 24 samples.

Results

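Liver transcripts of mice at CT15 were compared with those at CT09, 6 h earlier, on 3 arrays per time. These 6 arrays were taken by their labelled circadian time from 24 arrays of the series, and 19935 genes were compared. All mice were adult male C57BL/6 animals, first entrained to 12 h of light and 12 h of dim red light and then kept in dim red light throughout. Their livers were taken in the second cycle of dim red light. Each liver was extracted and hybridized on its own to an Affymetrix Mouse Gene ST 1.0 array, and the labels speak in one place of 4 mice per time and in another of 3 replicates. The CT15 livers and the CT09 livers differ by label only in circadian time. The labels name no altered gene and no drug in either group, and food was freely available. By the usual convention for circadian time, not written in the labels, CT09 lies in the subjective day, when mice rest, and CT15 in the subjective night, when they are active. Activity itself was not measured here.

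In the liver, as in other tissues, the proteins CLOCK and BMAL1 switch on genes through E-boxes, among them those of the PER and CRY repressors, of the nuclear receptor REV-ERB alpha and of DBP. REV-ERB proteins in turn hold back the gene of BMAL1 through ROR elements, which closes a further loop. Feeding, hormones and body temperature also follow the rest and activity cycle. They reach liver genes through such routes as heat shock factor 1, which acts on chaperone genes, and the glucocorticoid receptor.

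The deposited values give each array relative to the median of the gene over all 24 arrays. A value of 0 is thus that median, and no level of a gene is known. Differences are CT15 minus CT09 on the log2 scale, folds take base 2 for the logarithms, which no label states, and standard errors (SE) come from the fit to all 24 arrays. A gene is called, and is said to have risen or fallen, at an adjusted p under 0.05 in limma. The circadian phase could be checked through the clock genes. Arntl had its lowest mean of the 8 times at CT09, and Nr1d1 and Dbp were far above their medians there. In whole liver, fewer cells of a type and less RNA per cell cannot be told apart.

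Of the 6 arrays, CT15 replicates 1 and 2 and CT09 replicate 3 lay farthest from the mean of their time, with a spread over genes of 0.125, 0.124 and 0.121 (SD, log2), against 0.0912 for CT15 replicate 3 and 0.087 and 0.100 for CT09 replicates 1 and 2. The highest correlation between any pair of the 6 arrays over genes was 0.60, so no pair looked like the same array. Because single arrays weighed on the calls, the text names, for each gene reported as risen or fallen, every array without which the call was lost, with the adjusted p reached. Where no array is named, the call of CT15 against CT09 was kept without any 1 of the 6. Calls of the 3 h steps and of CT03 minus CT21 are given without this detail. Among markers of other cell types, the 11 endothelial genes had a mean over the list of 0.134, -0.001 and 0.179 at CT15, against -0.234, -0.088 and -0.198 at CT09. Of these 11, 3 were called (Lyve1, Emcn and Flt1, with differences of 0.60, 0.47 and 0.36, named after their values were seen). The Emcn call was kept without any 1 array, that of Lyve1 was lost without CT15 replicate 3 (0.0755) or CT09 replicate 1 (0.088), and that of Flt1 without CT15 replicate 1 (0.0523) or CT09 replicates 1 (0.0502) or 2 (0.0663). The means of the Kupffer cell list ranged over -0.037, -0.177 and 0.318 at CT15 and 0.074, 0.254 and -0.549 at CT09, and overlapped. The other marker lists held 2 called genes, Cd8a of lymphocytes (-0.37) and Pdgfrb of stellate cells (-0.22), both lower at CT15 and likewise named after their values were seen. The Cd8a call was lost without CT15 replicates 2 or 3 or CT09 replicates 1 or 2 (0.0515 to 0.225), and that of Pdgfrb without CT15 replicates 2 or 3 or any CT09 array (0.0745 to 0.158). In 4 lists the mean of every CT15 array lay below that of every CT09 array. The lymphocyte means were -0.015, -0.168 and -0.006 at CT15, against 0.102, 0.103 and 0.009 at CT09, and the neutrophil means -0.039, -0.121 and -0.025 at CT15, against 0.048, 0.097 and 0.036 at CT09. The skeletal muscle means were -0.051, -0.105 and -0.018 at CT15, against 0.065, 0.081 and 0.007 at CT09, and those of exocrine pancreas -0.041, -0.143 and -0.057 at CT15, against 0.054, 0.177 and 0.003 at CT09. Of the 10 neutrophil markers 5 had every CT15 array below every CT09 array, as 11.5% of all genes did. Among all genes outside the brighter class described below, the median difference was -0.0302 and 39.3% of differences were positive. The brightness class of these markers is not given here. Limma called 0 of the 11 hepatocyte markers. The part of cell composition in the results below was not tested.

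More genes rose than fell. At CT15, 629 genes were higher and 277 lower than at CT09, which is 3.16% and 1.39% of the genes tested and 4.54% together, while 4305 genes had an unadjusted p under 0.05. The changes were mostly small, with a median fold of 1.30 among the genes that rose and 1.26 among those that fell. A fold of 1.5 was reached by 91 and 29 of them and a fold of 2 by 15 and 6. Over all genes the median difference was -0.0207, and 43.1% of differences were positive. Brightness moved with the difference. The 2609 genes in the brighter class (values of 8 to 16 before centring, read from rounding steps) had a median difference of 0.0659 and 6.94% of them rose, against -0.0302 and 2.59% among the 17326 other genes. Differences were positive for 68.6% of the brighter genes and 39.3% of the others. With brighter probe sets alone in the fit, 241 genes were called higher and 74 lower. The number of calls also depended on single arrays. Without CT15 replicate 2 there were 276 and 100, without CT15 replicate 3 371 and 166, without CT09 replicate 1 372 and 118, and without CT09 replicate 2 234 and 96. Without CT15 replicate 1 there were 1121 and 518, and without CT09 replicate 3 822 and 491.

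**Figure D1:**
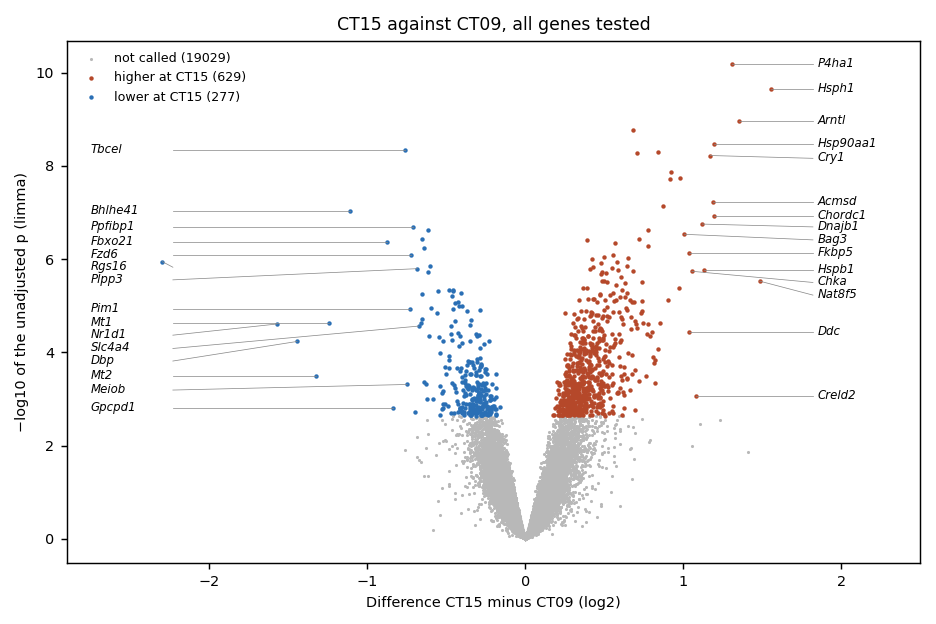
Each point is 1 of 19935 genes, with the difference CT15 minus CT09 (log2) on the horizontal axis and -log10 of the unadjusted limma p on the vertical axis; coloured points are called, and the 15 largest called differences in each direction whose arrays do not overlap are named. The chaperone gene Hsph1 has the largest called rise (1.55), and Rgs16 the largest called fall (-2.30), and more coloured points lie on the right (629) than on the left (277).

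Heat shock proteins and their partners were the list with the most calls. Of 24 genes tested in this list, most of them chaperones of the cytosol and nucleus, 17 rose and 0 fell, with a median difference of 0.61, where the median of all genes was -0.0207. Among all genes 3.16% rose and 1.39% fell. In 19 of the 24 every CT15 array lay above every CT09 array, as it did for 8.48% of all genes. Hsph1, an HSP70 relative that exchanges its nucleotide, had 1.23, 1.39 and 1.07 at CT15, against -0.20, -0.28 and -0.48 at CT09. The groups were wide apart, and the rise of 1.55 ± 0.13 (SE), or 2.93-fold, had an adjusted p of 2.24e-06. Hsp90aa1, the inducible HSP90, had 0.50, 0.78 and 0.65 at CT15, against -0.49, -0.53 and -0.62 at CT09. It rose 2.29-fold (adjusted p = 1.33e-05). Chordc1, a partner of HSP90, had 0.48, 1.07 and 0.77 at CT15, against -0.53, -0.59 and -0.14 at CT09, and rose 2.29-fold as well (adjusted p = 0.000145). Dnajb1, an HSP40 that delivers substrates to HSP70, had 1.04, 1.01 and 0.85 at CT15, against -0.18, 0.05 and -0.32 at CT09. Its rise was 1.12 ± 0.14 (SE; adjusted p = 0.000207).

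The partners of these chaperones moved with them. Bag3, which couples HSP70 to autophagy, had 0.99, 0.96 and 0.58 at CT15, against -0.19, -0.15 and -0.15 at CT09, a 2.01-fold rise (adjusted p = 0.000278). Stip1, which links HSP70 to HSP90, rose by 0.92 ± 0.10, Hspa4l, another nucleotide exchange factor, by 0.91 ± 0.10, and Ahsa2, a relative of the activator of the HSP90 ATPase, by 0.84 ± 0.09 (SE, 3 arrays per time). The small heat shock protein gene Hspb1 had 1.02, 0.43 and 0.44 at CT15, against -0.29, -0.57 and -0.63 at CT09, and rose by 1.13 ± 0.17 (adjusted p = 0.00076). Dnajb4, an HSP40, rose by 0.78, and Hspa8, the constitutive HSP70, by 0.60, with 0.61, 0.62 and 0.57 at CT15, against -0.03, 0.01 and 0.03 at CT09. In all of these every CT15 array lay above every CT09 array, as in 593 of the 629 risen genes. The list also holds Hspd1 and Hspe1, the mitochondrial HSP60 and HSP10 genes, which rose by 0.23 and 0.42 (adjusted p = 0.0326 and 0.0439, named after their values were seen). Both calls were lost without CT15 replicates 2 or 3 or CT09 replicates 1 or 2 (0.0555 to 0.191 for Hspd1 and 0.0875 to 0.227 for Hspe1). The members that were not called lay between -0.05 and 0.33. Among them Hspa1a, the inducible HSP70, had a difference of 0.33 (adjusted p = 0.0516), and Hsf2, a heat shock factor, one of -0.05. The list kept 15 or more called members without any 1 array and 17 with the replicate block, and it had 11 when the 6 arrays were fitted alone.

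Promoter windows from RefSeq (GRCm38.p6), running from 250 bases before to 50 after a gene's start, were at hand for 15561 of the 19935 genes. A palindromic pair of heat shock units, searched as GAANNTTC on both strands, stood in 11 of the 20 heat shock list promoters given. The risen genes among them were Hsph1, Hspb1, Hspb8, Hspd1, Hspe1, Bag3, Chordc1, Dnaja1 and Fkbp4. Hspa1a and Dnaja4, with differences of 0.33 and 0.11, held it too and were not called. The risen Hsp90aa1, Dnajb1 and Stip1 were not among the genes with the match, and which genes lacked a window is not given here. Not every window given for Dnaja1 holds the match. All promoters held it in 7.95% of cases, those of the genes that rose in 9.75% and those of the genes that fell in 8.8%. The match was thus common in the chaperone list and near its share in all promoters among risen genes at large. It is shown in capitals, 5′ to 3′, in the promoter of the gene with the largest rise, which has a single match, and in those of 2 strongly risen list members with a pair of matches.
Hsph1, chr5:149636287-149636586, minus strand: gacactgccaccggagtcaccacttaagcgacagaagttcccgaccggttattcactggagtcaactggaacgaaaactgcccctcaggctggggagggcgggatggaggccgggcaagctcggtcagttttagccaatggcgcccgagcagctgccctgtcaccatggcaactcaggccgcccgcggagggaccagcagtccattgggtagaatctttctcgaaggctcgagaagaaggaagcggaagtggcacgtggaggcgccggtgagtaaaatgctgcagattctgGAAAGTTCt
Chordc1, chr9:18292017-18292316, plus strand: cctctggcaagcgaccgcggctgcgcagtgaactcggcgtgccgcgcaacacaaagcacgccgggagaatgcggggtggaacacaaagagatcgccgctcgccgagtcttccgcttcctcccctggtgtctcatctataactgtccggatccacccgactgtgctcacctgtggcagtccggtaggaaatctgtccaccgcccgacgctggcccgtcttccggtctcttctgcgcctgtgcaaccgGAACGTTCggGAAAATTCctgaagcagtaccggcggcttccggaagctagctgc
Hspb1, chr5:135887669-135887968, plus strand: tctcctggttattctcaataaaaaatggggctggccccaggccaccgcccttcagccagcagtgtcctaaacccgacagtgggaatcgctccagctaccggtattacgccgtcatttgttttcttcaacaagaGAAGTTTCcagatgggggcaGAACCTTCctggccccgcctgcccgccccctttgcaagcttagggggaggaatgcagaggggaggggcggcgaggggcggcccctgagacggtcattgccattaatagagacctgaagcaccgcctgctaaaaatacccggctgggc
The match in the Hsph1 window begins 42 bases after the start of that window's transcript and 21 after the other start given for the gene, those of Chordc1 at -4 and 7, and those of Hspb1 at -117 and -97, where negative positions lie before the start. A match of letters is not a bound site.

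Genes of folding in the endoplasmic reticulum and of the unfolded protein response rose to a smaller extent. Their calls depended on single arrays, most of all on CT15 replicate 2. Of 30 tested, 8 rose and 1 fell, where 3.16% of all genes rose and 1.39% fell, and the median difference was 0.22. In 13 every CT15 array lay above every CT09 array (8.48% of all genes). Creld2, an endoplasmic reticulum protein made under folding stress, had 0.29, 1.39 and 0.27 at CT15, against -0.16, -0.35 and -0.77 at CT09. Its rise of 1.08 ± 0.28 (SE; adjusted p = 0.0288) was carried in good part by CT15 replicate 2, and it was not called without that array (0.191) or CT09 replicates 2 (0.0827) or 3 (0.0744). Hspa5, the HSP70 of this compartment (BiP), had 0.07, 0.67 and 0.20 at CT15, against -0.31, -0.23 and -0.38 at CT09, and rose by 0.62 ± 0.14 (adjusted p = 0.0158; 0.114 without CT15 replicate 2). Hspa13, another HSP70 relative, had -0.02, 0.74 and 0.50 at CT15, against -0.55, -0.33 and -0.36 at CT09, and rose by 0.82 (adjusted p = 0.0104; 0.0776 without CT15 replicate 2 and 0.0502 without CT09 replicate 1). In these 3 genes CT15 replicate 2 was the highest of the 6 arrays. Pdia4, a disulfide isomerase, rose by 0.66 (adjusted p = 0.0246), a call lost without CT15 replicate 2 (0.145) or CT09 replicates 1 (0.0632) or 2 (0.124). Edem1, of the degradation of misfolded glycoproteins, rose by 0.34 (0.0658 without CT15 replicate 2). Trib3, a pseudokinase induced under stress, was the member that fell, with 0.02, -0.38 and -0.26 at CT15, against 0.53, 0.49 and 0.33 at CT09, a difference of -0.66 ± 0.11 (adjusted p = 0.00156). Without CT15 replicate 2, 0 members were called higher, and without CT09 replicate 2 there were 4. There were 3 when the average over small nucleolar RNAs on each array entered the fit as a covariate. That average was 0.213 in CT15 replicate 2, against 0.0779 and -0.0285 in CT15 replicates 1 and 3 and -0.114 to 0.0163 at CT09, and its part in the result was not tested beyond the covariate.

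The endoplasmic reticulum stress element, a CCAAT box and a second half-site at a fixed distance, was found on either strand in 9 of the 24 promoters given for this list and in 0.13% of all promoters. Of the genes that rose, 0.58% held it. The windows of Hspa5 and Creld2, the list's best known chaperone gene and its largest rise, show it in capitals, on the reverse strand in the case of Creld2.
Hspa5, chr2:34771840-34772139, plus strand: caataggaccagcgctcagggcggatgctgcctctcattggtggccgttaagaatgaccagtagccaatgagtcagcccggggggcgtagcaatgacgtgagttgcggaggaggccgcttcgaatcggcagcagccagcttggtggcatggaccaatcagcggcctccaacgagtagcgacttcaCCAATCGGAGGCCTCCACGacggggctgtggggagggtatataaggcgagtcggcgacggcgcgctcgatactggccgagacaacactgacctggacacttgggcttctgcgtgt
Creld2, chr15:88819396-88819695, plus strand: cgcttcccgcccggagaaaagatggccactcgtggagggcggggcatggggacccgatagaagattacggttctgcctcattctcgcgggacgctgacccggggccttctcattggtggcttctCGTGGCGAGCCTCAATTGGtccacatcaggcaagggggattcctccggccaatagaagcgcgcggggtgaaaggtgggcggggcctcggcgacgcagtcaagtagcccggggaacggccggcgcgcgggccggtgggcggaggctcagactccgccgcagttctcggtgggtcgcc
It begins at position -65 from the gene's start in Hspa5 and at -126 in Creld2. Of the 9 members with the match, Hspa5 and Creld2 were called and the others were not. Syvn1 had a difference of 0.74 (adjusted p = 0.0547). Derl3 (0.23), Dnajc3 (0.22), Hsp90b1 (0.21) and Pdia6 (0.19) had smaller ones. Calr and Canx, chaperones of glycoproteins, had the smallest, 0.02 and 0.06 (adjusted p = 0.921 and 0.512).

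Clock genes turned over in both directions. In the positive limb and among genes held through ROR elements, 3 of 5 rose and 0 fell. The shares over all genes were 3.16% and 1.39%. Arntl, which encodes BMAL1, had -0.41, -0.32 and -0.11 at CT15, against -1.52, -1.78 and -1.59 at CT09. The arrays did not overlap, and the rise of 1.35 ± 0.13 (SE), or 2.55-fold, had an adjusted p of 7.37e-06. Both groups were below the gene's median over the 24 arrays. Clock, its partner, had -0.39, -0.04 and -0.05 at CT15, against -0.57, -0.64 and -0.55 at CT09 (rise of 0.43 ± 0.07, adjusted p = 0.00178). Nfil3, a repressor that competes with DBP, had 0.03, 0.12 and -0.01 at CT15, against -0.43, -0.58 and -0.93 at CT09, and rose by 0.69 (adjusted p = 0.014; 0.0657 without CT15 replicate 2). Arntl2 and Rora had differences of 0.05 and 0.04 (adjusted p = 0.725 and 0.86).

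In the negative limb and among the PAR bZIP factors, 13 genes in all, 2 rose, 3 fell and the median difference was -0.24. Among all genes 3.16% rose and 1.39% fell. Cry1, a repressor of CLOCK and BMAL1, had 0.52, 0.08 and 0.35 at CT15, against -0.82, -0.87 and -0.87 at CT09, and rose 2.25-fold (1.17 ± 0.12, SE; adjusted p = 1.33e-05). Per2, which acts with it, had 0.74, 0.76 and 0.49 at CT15, against -0.11, -0.01 and 0.10 at CT09, and rose 1.59-fold (adjusted p = 0.00397). Both stood clear of their CT09 arrays. Nr1d1, which encodes REV-ERB alpha, fell, with -0.003, -0.28 and -0.19 at CT15, against 1.39, 1.36 and 1.49 at CT09 (-1.57 ± 0.29, or 2.97-fold; adjusted p = 0.00344). Dbp, an activator at D-boxes, had 0.04, 0.10 and 0.27 at CT15, against 1.499, 1.52 and 1.73 at CT09, and fell 2.72-fold (adjusted p = 0.00578). Bhlhe41, a repressor at E-boxes, had -0.24, 0.24 and -0.15 at CT15, against 1.05, 0.95 and 1.20 at CT09, and fell 2.16-fold (adjusted p = 0.000125). In all 3 every CT15 array lay below every CT09 array, as in 268 of the 277 fallen genes and 11.5% of all genes.

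The other members of the negative limb were not called. Ciart, a repressor of CLOCK and BMAL1, had 0.85, 0.90 and 0.73 at CT15, against 1.61, 1.57 and 1.35 at CT09, a difference of -0.68 (adjusted p = 0.0871) without overlap. Differences of -0.48 for Nr1d2, the gene of REV-ERB beta, -0.35 for Per3 and -0.24 for Tef, a PAR bZIP factor, had adjusted p of 0.268, 0.182 and 0.179, and in each the CT15 arrays lay below those of CT09. Per1 (-0.14), Bhlhe40 (-0.07), Hlf (0.05) and Cry2 (0.03) overlapped between the times. Of 13 modifiers of clock proteins 0 were called at an adjusted p under 0.05 in limma. The 5 with the smallest p were the deubiquitinase gene Usp2, with a difference of -0.37 (adjusted p = 0.095), the kinase gene Csnk1e (0.12), the ubiquitin ligase gene Btrc (-0.14), the deacetylase gene Sirt1 (0.15) and Timeless (-0.09). The cold-inducible RNA-binding protein genes Cirbp and Rbm3 had differences of -0.31 and -0.04 (adjusted p = 0.134 and 0.907).

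The E-box CACGTG stood in 5 of 11 promoters given for the negative limb and PAR bZIP list (Per1, Cry1, Ciart, Bhlhe41 and Tef), against 9.52% of all promoters, 12.48% of those of risen genes and 13.89% of those of fallen genes. Cry1, which rose, and Bhlhe41, which fell, both carry it, in capitals here.
Cry1, chr10:85185005-85185304, minus strand: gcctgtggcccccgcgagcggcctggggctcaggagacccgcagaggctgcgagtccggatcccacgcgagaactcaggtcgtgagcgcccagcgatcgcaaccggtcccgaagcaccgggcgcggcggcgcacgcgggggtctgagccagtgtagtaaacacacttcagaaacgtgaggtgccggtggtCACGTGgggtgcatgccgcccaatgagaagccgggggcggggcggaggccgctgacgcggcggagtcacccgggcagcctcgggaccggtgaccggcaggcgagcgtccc
Bhlhe41, chr6:145865371-145865670, minus strand: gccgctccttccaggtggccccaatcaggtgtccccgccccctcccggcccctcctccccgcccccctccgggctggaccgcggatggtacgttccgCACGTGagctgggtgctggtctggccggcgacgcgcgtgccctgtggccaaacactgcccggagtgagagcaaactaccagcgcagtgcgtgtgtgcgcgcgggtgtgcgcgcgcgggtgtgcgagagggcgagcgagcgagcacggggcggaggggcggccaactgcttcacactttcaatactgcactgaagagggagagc
The ROR element TAGGTCA was found in the windows of Arntl and Nfil3 among the 5 positive limb promoters, and in 2.64% of all. That of Arntl lies 31 bases after 1 of the starts RefSeq gives for the gene.
Arntl, chr7:113207261-113207560, plus strand: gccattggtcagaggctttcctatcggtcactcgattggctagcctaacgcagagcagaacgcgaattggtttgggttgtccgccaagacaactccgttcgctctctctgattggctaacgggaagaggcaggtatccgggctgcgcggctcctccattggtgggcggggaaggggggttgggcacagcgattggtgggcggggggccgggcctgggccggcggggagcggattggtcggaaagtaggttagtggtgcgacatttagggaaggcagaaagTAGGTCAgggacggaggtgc
The window of the other start given for Arntl does not hold the match. The D-box (TTATGTAA or TTACGTAA) was in 0.78% of promoters of risen genes, 0.93% of those of fallen genes and 1.17% of all, and the cAMP element TGACGTCA in 5.85%, 2.31% and 2.72%.

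**Figure D2:**
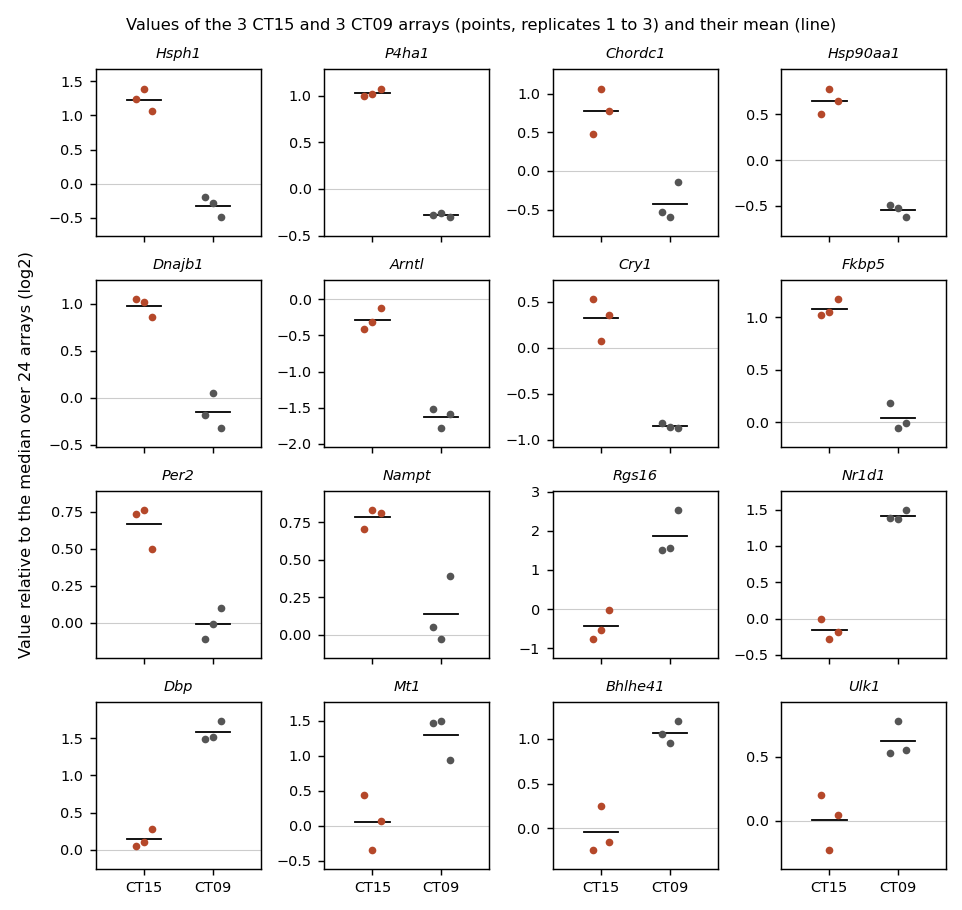
Each panel shows 1 gene, with the 3 CT15 arrays on the left and the 3 CT09 arrays on the right as points (replicates 1 to 3 from left to right) and their mean as a line; the vertical axis is the value relative to the gene's median over 24 arrays (log2). In all 16 genes the CT15 arrays are clear of the CT09 arrays, above them in the first 10 panels and below them in the last 6.

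Beyond chaperones and clock genes, the following were among the largest rises. P4ha1, a subunit of the enzyme that hydroxylates prolines of collagen, had 1.00, 1.01 and 1.07 at CT15, against -0.28, -0.26 and -0.30 at CT09. Both groups were tight, and its rise of 1.31 ± 0.10 (SE) had the smallest p of all genes (adjusted p = 1.33e-06). P3h1, another prolyl hydroxylase of collagen, had a smaller rise of 0.33 ± 0.06 (adjusted p = 0.00303). Nat8f5, an N-acetyltransferase family member, had -0.14, 1.00 and 0.44 at CT15, against -1.17, -1.03 and -0.95 at CT09, and rose 2.80-fold (adjusted p = 0.00108) with a wide spread at CT15. Acmsd, an enzyme that turns tryptophan breakdown away from NAD, had 0.78, 0.24 and 0.51 at CT15, against -0.51, -0.52 and -1.01 at CT09, and rose 2.27-fold (adjusted p = 8.9e-05). Chka, choline kinase, had 0.13, 0.01 and -0.42 at CT15, against -1.20, -1.13 and -1.12 at CT09, and rose 2.08-fold (adjusted p = 0.000772). Ddc, aromatic amino acid decarboxylase, had -0.33, 0.34 and -0.70 at CT15, against -1.05, -1.50 and -1.23 at CT09, and rose 2.05-fold (adjusted p = 0.00455). In all 6 the arrays of the times did not overlap, which the naming rule required of all but P3h1.

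The largest fall was that of Rgs16, which limits signalling by G proteins. It had -0.75, -0.52 and -0.02 at CT15, against 1.51, 1.57 and 2.52 at CT09, a difference of -2.30 ± 0.34 (SE), or 4.91-fold (adjusted p = 0.000635). The metallothionein genes, which bind zinc and copper and respond to glucocorticoids, fell together. Mt1 had 0.44, -0.34 and 0.07 at CT15, against 1.47, 1.49 and 0.94 at CT09 (2.37-fold, adjusted p = 0.00341). Mt2 had 0.15, -0.22 and 0.15 at CT15, against 1.95, 1.75 and 0.34 at CT09. One CT09 array was close to those of CT15, and the fall of 1.32 on the log2 scale (adjusted p = 0.0168) was not called without CT15 replicate 2 (0.091) or CT09 replicates 1 (0.0931) or 2 (0.102).

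Smaller falls came in genes of mixed function, which the naming rule took only from called genes without overlap of the arrays. Fbxo21, of a ubiquitin ligase, fell 1.84-fold, Tbcel, related to a tubulin folding factor, 1.69-fold, and the kinase gene Pim1 1.66-fold. Tbcel had -0.26, -0.39 and -0.37 at CT15, against 0.38, 0.39 and 0.49 at CT09, the smallest p among fallen genes (adjusted p = 1.33e-05). The Wnt receptor gene Fzd6 (1.65-fold), Ppfibp1 of the liprin family (1.63-fold), the lipid phosphatase gene Plpp3 (1.61-fold) and the bicarbonate transporter gene Slc4a4 (1.60-fold) followed, with adjusted p from 0.000227 to 0.0037. Gpcpd1, which breaks down glycerophosphocholine, fell 1.79-fold (adjusted p = 0.0408), a call lost without CT15 replicates 1 (0.0834) or 2 (0.148) or CT09 replicates 1 (0.0962), 2 (0.108) or 3 (0.0674). Meiob, known for its part in meiosis, fell 1.68-fold (adjusted p = 0.0213) and lost its call without CT15 replicates 1 (0.0523) or 3 (0.0739) or CT09 replicates 2 (0.0694) or 3 (0.0523).

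Glucocorticoid-responsive genes moved both ways, with 2 of 20 risen and 2 fallen and a median difference of 0.06. Among all genes 3.16% were called higher and 1.39% lower. Fkbp5, a partner of HSP90 that restrains the glucocorticoid receptor, had 1.02, 1.05 and 1.17 at CT15, against 0.18, -0.05 and -0.01 at CT09, a rise of 1.04 ± 0.15 (SE; adjusted p = 0.000508). Tsc22d3 (GILZ), an anti-inflammatory target of the receptor, had 0.50, 0.18 and 0.44 at CT15, against 0.02, -0.35 and -0.41 at CT09, and rose 1.54-fold (adjusted p = 0.00344). The 2 that fell were Mt1 and Mt2. Tat, tyrosine aminotransferase, had a difference of 0.35 (adjusted p = 0.0846). A paired glucocorticoid half-site was found in 0.39% of promoters of risen genes, 1.39% of those of fallen genes and 0.47% of all.

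The lists of lipid metabolism are given beside 3.16% of all genes called higher and 1.39% called lower. Fatty acid and triglyceride synthesis had 3 risen and 0 fallen of 28, with a median of 0.10. Agpat2, an acyltransferase on the way to triglyceride, had -0.17, -0.03 and -0.06 at CT15, against -0.52, -0.49 and -0.68 at CT09, and rose 1.39-fold (adjusted p = 0.000834). The elongase gene Elovl1 rose 1.36-fold (0.0588 without CT15 replicate 2). Thrsp, a promoter of lipogenesis, had 0.42, 0.53 and 0.52 at CT15, against -0.32, 0.09 and -0.32 at CT09, a 1.60-fold rise (adjusted p = 0.0158) that was not called without CT15 replicates 2 (0.0652) or 3 (0.0513) or CT09 replicate 1 (0.0707). Oxidation and ketogenesis had 1 risen and 4 fallen of 33, with a median of 0.03 and 19 positive differences. Its members ran from -0.56 for Angptl4 to 1.41 for Cyp4a14, neither of them called. Plin5, which ties lipid droplets to mitochondria, rose, with 0.20, 0.19 and 0.27 at CT15, against -0.30, -0.18 and -0.40 at CT09 (1.43-fold, adjusted p = 0.00316). Pnpla2, the triglyceride lipase, fell, with 0.21, -0.20 and 0.03 at CT15, against 0.49, 0.41 and 0.48 at CT09 (1.36-fold, adjusted p = 0.00317). Plin2, another droplet coat gene, fell 1.45-fold (0.0582 without CT09 replicate 2). The receptor gene Ppara fell 1.32-fold (0.147 without CT15 replicate 2, 0.0707 and 0.0862 without CT09 replicates 1 and 2). Cpt1a, of fatty acid entry into mitochondria, fell 1.30-fold, a call lost without CT15 replicates 2 (0.136) or 3 (0.0651) or CT09 replicates 1 (0.0752) or 2 (0.0511).

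Cholesterol genes split, with 2 risen and 2 fallen of 22 and a median of 0.02. Beside this list and the next stand 3.16% of all genes called higher and 1.39% called lower. Hmgcs1, an early enzyme of the mevalonate pathway, had -0.86, -0.29 and -0.51 at CT15, against -0.19, -0.06 and 0.03 at CT09, and fell 1.40-fold (adjusted p = 0.0135; 0.0556 without CT09 replicate 2). Insig1, which retains the SREBP complex, had 0.06, 0.31 and 0.08 at CT15, against -0.48, -0.64 and -0.07 at CT09, and rose 1.46-fold (adjusted p = 0.0158), without the call when CT15 replicate 2 (0.0981) or CT09 replicates 1 (0.0659) or 2 (0.108) were left out. Scap, the SREBP escort, fell 1.29-fold, but not without CT15 replicates 2 (0.147) or 3 (0.0662) or CT09 replicates 1 (0.0701) or 2 (0.121). Lss, of sterol ring closure, rose 1.34-fold, but not without CT15 replicate 2 (0.216) or CT09 replicates 1 (0.126) or 2 (0.123). Of 20 bile acid genes 3 fell and 0 rose, with a median of -0.10. Hsd3b7, of bile acid synthesis, had -0.70, -0.42 and -0.54 at CT15, against 0.05, -0.17 and -0.22 at CT09, and fell 1.36-fold (adjusted p = 0.00185). The phospholipid exporter gene Abcb4 fell 1.29-fold (adjusted p = 0.0235), a call lost without CT15 replicates 1 or 3 or CT09 replicates 1 or 2 (0.0533 to 0.0886). The sterol exporter gene Abcg8 fell 1.44-fold (adjusted p = 0.0267), a call lost without CT15 replicates 2 or 3 or any CT09 array (0.0547 to 0.176).

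Among genes of carbohydrates, 3 of 20 in glycolysis and glycogen rose, 0 of 15 in gluconeogenesis were called, and 3 of 23 in insulin signalling fell. The shares over all genes were 3.16% called higher and 1.39% called lower. Ppp1r3b, which brings a phosphatase to glycogen, had -0.07, 0.19 and 0.16 at CT15, against -1.01, -1.11 and -0.52 at CT09, and rose 1.97-fold (0.97 ± 0.16, SE; adjusted p = 0.00135). Pgd of the pentose phosphate pathway rose 1.28-fold (0.0745 without CT15 replicate 3, 0.0661 without CT09 replicate 1). Pfkl, liver phosphofructokinase, rose 1.17-fold (adjusted p = 0.0422), with the call lost without any CT15 array or CT09 replicates 2 or 3 (0.0553 to 0.127). Grb14, an inhibitor of the insulin receptor, had -0.37, -0.30 and -0.38 at CT15, against 0.07, 0.21 and 0.04 at CT09, and fell 1.37-fold (adjusted p = 0.00235). Mtor fell 1.33-fold (0.0795 without CT15 replicate 2, 0.0605 without CT09 replicate 1), and Irs2, an insulin receptor substrate, 1.44-fold, with the call lost without CT15 replicates 2 or 3 or any CT09 array (0.0547 to 0.253). In gluconeogenesis the smallest p was that of Tat, and the next 4 were Gpt (0.24), Slc37a4 (0.33), Igfbp1 (-0.62) and Ldha (0.13), none of them called.

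Among amino acid and NAD genes, the called members were all higher at CT15, beside shares of 3.16% of all genes called higher and 1.39% called lower. In the urea cycle and amino acid breakdown 2 of 22 rose. Asl, argininosuccinate lyase of the urea cycle, had 0.34, 0.15 and 0.46 at CT15, against -0.05, -0.16 and -0.28 at CT09 (1.39-fold, adjusted p = 0.000635). Gldc, which cleaves glycine, had 0.02, -0.18 and -0.18 at CT15, against -0.68, -0.69 and -0.90 at CT09 (1.56-fold, adjusted p = 0.000731). In the methionine and glutathione list 2 of 12 rose. Odc1, the first enzyme of polyamine synthesis, had 0.34, 0.79 and 0.17 at CT15, against -0.28, -0.45 and -0.30 at CT09 (1.71-fold, adjusted p = 0.000391). Mtr, methionine synthase, rose 1.21-fold (adjusted p = 0.0265), with the call lost without CT15 replicates 2 (0.145) or 3 (0.058) or CT09 replicate 2 (0.125). Of 19 NAD genes 4 rose. Nampt, the salvage enzyme, had 0.70, 0.83 and 0.81 at CT15, against 0.05, -0.03 and 0.39 at CT09, a rise of 0.64 ± 0.11 (SE; adjusted p = 0.00244). Nmnat1, which follows it in the nucleus, rose 1.29-fold (adjusted p = 0.0043). Afmid of tryptophan breakdown rose 1.32-fold and Naprt 1.22-fold. The Afmid call was lost without CT15 replicate 3 or CT09 replicates 1 or 2 (0.0651 to 0.127), and that of Naprt without CT15 replicates 2 or 3 or CT09 replicates 2 or 3 (0.0682 to 0.0908).

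The machinery of RNA and protein gave scattered rises of small size, where 3.16% of all genes were called higher and 8.48% had every CT15 array above every CT09 array. In the brighter class 6.94% of genes were called higher, and the class of the members below is not given here. Ribosome biogenesis had 2 of 31 called higher and a median of 0.17, with every CT15 array above every CT09 array in 11 members. Its 2 called genes, Wdr12 (1.32-fold) and Nop14 (1.31-fold), both of ribosome assembly, lost their calls without CT15 replicate 2 (0.12 and 0.226) or CT09 replicate 2 (0.109 and 0.168), and Nop14 also without CT15 replicate 3 (0.0617) or CT09 replicate 1 (0.162). Of 16 ribosomal protein genes limma called 0, and Rpl7 had the smallest p with a difference of 0.16 (adjusted p = 0.119). In translation 4 of 30 rose. Farsa, a subunit of phenylalanyl-tRNA synthetase, had 0.12, 0.21 and 0.26 at CT15, against -0.06, -0.09 and -0.13 at CT09 (1.22-fold, adjusted p = 0.00665), and Tars, threonyl-tRNA synthetase, rose 1.32-fold (0.06 without CT15 replicate 2). Wars rose 1.34-fold (0.0629 to 0.166 without CT15 replicate 2 or CT09 replicates 2 or 3) and Eif5a 1.21-fold (0.0784 to 0.117 without CT15 replicate 2 or CT09 replicates 1 or 2). Among splicing genes 2 of 26 rose and 1 fell. Tra2a rose 1.21-fold (adjusted p = 0.01), but its 3 probe sets ran from -0.11 to 0.78. Its relative Tra2b rose 1.36-fold and Hnrnpl fell 1.23-fold, and both calls were lost without CT15 replicates 2 or 3 or CT09 replicates 1 or 2 (0.0663 to 0.0994 for Tra2b and 0.069 to 0.131 for Hnrnpl).

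The next lists held few calls, beside 3.16% of all genes called higher and 1.39% called lower. Ulk1, the kinase that starts autophagy, had 0.20, -0.22 and 0.04 at CT15, against 0.53, 0.78 and 0.55 at CT09, and fell 1.53-fold (adjusted p = 0.000773). In its list of 27, Gabarapl1, of autophagosome formation, also fell (1.40-fold; 0.0744 without CT15 replicate 2 and 0.0519 without CT09 replicate 2), and Ctsb, a lysosomal protease, rose 1.15-fold, with the call lost without any CT15 array or CT09 replicates 1 or 2 (0.064 to 0.168). Among 27 cell cycle genes 1 rose, the cyclin gene Ccne2, with 0.25, 0.53 and 0.36 at CT15, against -0.09, -0.12 and -0.02 at CT09 (1.37-fold, adjusted p = 0.00344). Among 19 actin, tubulin and SRF genes 2 rose. Tubb2a, a beta tubulin, had 0.13, -0.07 and -0.44 at CT15, against -1.18, -1.13 and -0.45 at CT09 (1.73-fold, adjusted p = 0.00498), with an array of each time almost level. Tubb5 rose 1.22-fold (adjusted p = 0.044), a call lost without any 1 of the 6 arrays (0.0504 to 0.189). Of 12 Kruppel-like factors Klf11 fell, by 1.36-fold (0.0881 to 0.178 without CT15 replicate 2 or CT09 replicates 1 or 2), and Klf10 and Klf9 had differences of -0.62 and -0.52 (adjusted p = 0.081 and 0.0969). Of 29 xenobiotic genes 1 rose and 3 fell. The receptor genes Nr1i3 (CAR) and Ahr fell 1.37-fold and 1.42-fold, the exporter gene Abcc2 fell 1.28-fold and Gsta3, a glutathione transferase, rose 1.18-fold. Nr1i3 lost its call without CT15 replicate 2 or CT09 replicates 1 or 3 (0.0583 to 0.0867), Ahr without CT15 replicates 1 or 2 or any CT09 array (0.0506 to 0.18), Abcc2 without CT15 replicates 2 or 3 or any CT09 array (0.0582 to 0.187), and Gsta3 without CT15 replicates 2 or 3 or CT09 replicates 1 or 2 (0.0755 to 0.164).

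The remaining lists are likewise given beside 3.16% of all genes called higher and 1.39% called lower. The respiratory chain had 2 of 26 risen, Cyc1 (1.16-fold) and Cox5a (1.16-fold), with a median of 0.12, and 24 of its 26 differences were positive, as were 43.1% of all genes and 68.6% of the brighter class. Cyc1 lost its call without CT15 replicate 3 or CT09 replicates 1 or 2 (0.0733 to 0.0926), and Cox5a without CT15 replicates 2 or 3 or CT09 replicates 2 or 3 (0.0502 to 0.127). One gene rose in each of 4 further lists: Psmb6 of 28 proteasome genes (1.17-fold), Slc11a2 of 21 heme and iron genes (1.39-fold), Crp of 26 acute phase and complement genes (1.27-fold) and Gusb of 11 reference genes (1.24-fold). Gusb, often used to normalize, had 0.28, 0.16 and 0.29 at CT15, against 0.04, 0.00 and -0.24 at CT09 (adjusted p = 0.00793). The Psmb6 call was lost without CT15 replicates 2 or 3 or any CT09 array (0.0764 to 0.199), that of Slc11a2 without CT15 replicates 2 or 3 or CT09 replicate 2 (0.0771 to 0.148), and that of Crp without CT15 replicates 2 or 3 or CT09 replicates 1 or 2 (0.104 to 0.175). Limma called 0 of 24 immediate early and stress genes, 0 of 17 growth hormone axis genes and 0 of 21 coagulation and secreted protein genes. In the hepatokine list of 19 only Rgs16 was called. Angptl8, a feeding-induced secreted protein, had 0.30, 1.11 and -0.16 at CT15, against -1.05, -1.43 and 0.05 at CT09, which overlapped (difference 1.23, adjusted p = 0.057).

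**Figure D3:**
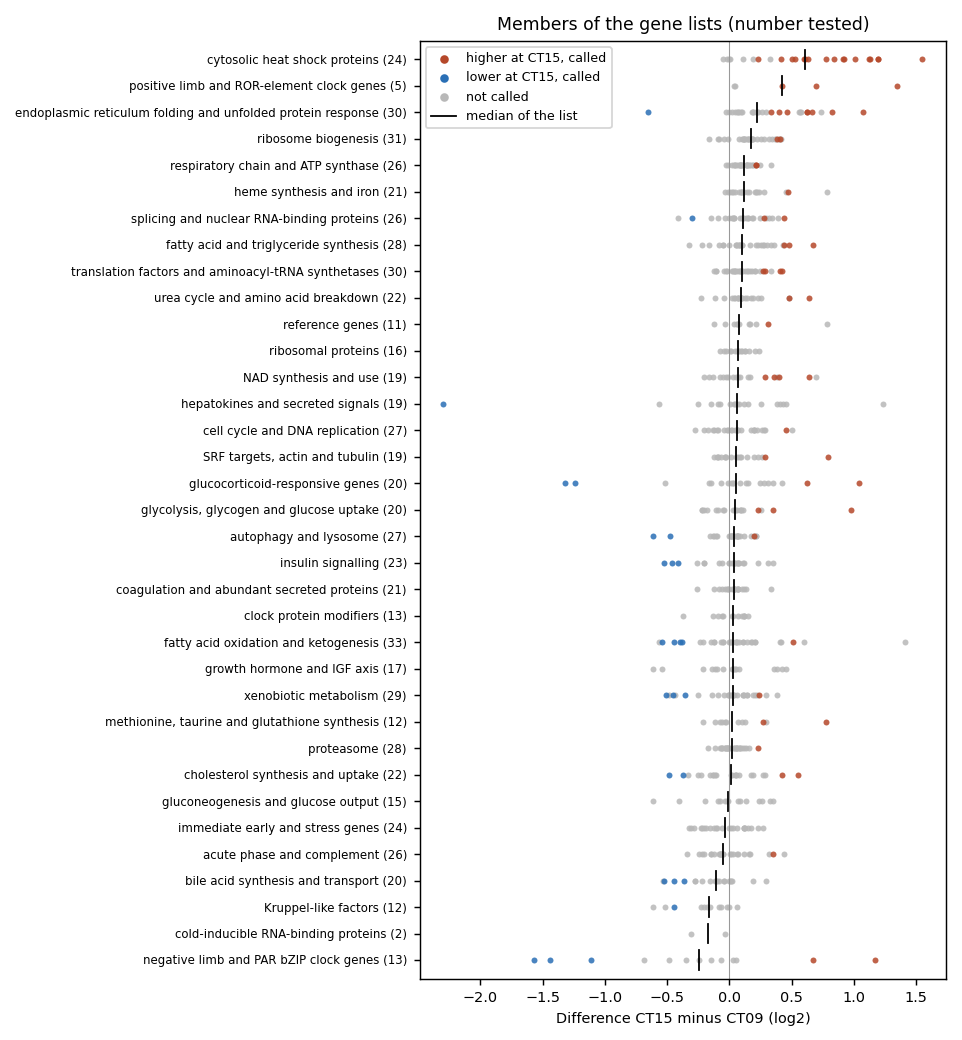
Each row is 1 gene list with the number of members tested, each point is 1 member's difference CT15 minus CT09 (log2), colour shows the call and the black bar is the list's median. The cytosolic heat shock list at the top has 17 called rises and a median of 0.61, and the negative limb and PAR bZIP list at the bottom has a median of -0.24.

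The array set at CT12 divides the interval into steps of 3 h. CT12 minus CT09 shares the CT09 arrays and CT15 minus CT12 the CT15 arrays with the main comparison, so their values are given side by side only. The first step had 12 genes called higher and 9 lower (0.0602% and 0.0451% of genes, 0.105% together) and the second 80 and 33 (0.401% and 0.166%, 0.567% together). These counts of calls do not show when the genes of the main comparison moved. By CT12 the risen genes had covered a median of 48.9% of their difference and the fallen genes 52.3%. Among the risen genes the first step was the larger in 308 and the second in 321. Among the fallen genes these numbers were 148 and 129. Fkbp5 had a first step of 0.79 (adjusted p = 0.037) and a second of 0.25 (0.77). Nampt had 0.81 (0.0091) and -0.17 (0.81), with its mean highest at CT12 among the 8 times. Pim1 (-0.75, then 0.02), Hmgcs1 (-0.58, then 0.10) and Plin2 (-0.58, then 0.04) likewise had called first steps and second steps that were not. Others had the second step called and not the first. Rgs16 had -0.02, then -2.28 (adjusted p = 0.0017). Hsph1 had 0.36, then 1.20 (0.00013), P4ha1 0.28, then 1.02 (9.5e-05), Hsp90aa1 0.18, then 1.01 (0.0002), and Hspb1 -0.15, then 1.28 (0.00052). Arntl had 0.21, then 1.14 (0.00013), Acmsd 0.14, then 1.05 (0.00066), Chka 0.07, then 0.99 (0.0048), and Gldc -0.10, then 0.74 (0.0004). The difference between the steps was not tested. The calls of the steps also rested on single arrays, with 0 to 121 higher and 0 to 69 lower in the first step and 24 to 111 and 5 to 51 in the second when 1 array was left out. All calls of the first step, those of Fkbp5, Nampt, Pim1, Hmgcs1 and Plin2 included, were lost without CT09 replicate 1. The same held without CT09 replicate 2 and without CT12 replicate 1.

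The CT12 mean lay outside the range between the CT15 and CT09 means for 62 of the 629 risen genes and 29 of the 277 fallen ones. Of those farthest outside, 4 are given here. Cldn1, a tight junction protein gene, had its CT12 mean below both, with steps of -0.25 and 0.85 around a rise of 0.61 (adjusted p = 0.00281), and Slc30a10, a manganese exporter gene, had steps of -0.15 and 0.59 around a rise of 0.44. Erbb4, a receptor kinase gene, had its CT12 mean above both, with steps of 0.22 and -0.84 around a fall of 0.63. Shld2, of DNA repair, rose by 0.33 with steps of 0.53 and -0.20. The calls of CT15 against CT09 were lost for Slc30a10 without CT15 replicates 2 or 3 or CT09 replicate 1 (0.0548 to 0.117), for Erbb4 without CT15 replicate 2 or CT09 replicates 1 or 3 (0.0529 to 0.0701), and for Shld2 without CT15 replicates 2 or 3 or CT09 replicates 1 or 2 (0.0529 to 0.145).

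Seen over the 8 times, 424 of the 629 risen genes had their highest mean at CT15 and 101 at CT18, and 408 had their lowest at CT09. Of the 277 fallen genes, 176 were highest at CT09 and 162 lowest at CT15. The choice of genes by this difference favours such extremes. Hsph1 went on at 0.97 ± 0.21 at CT18, after 1.23 ± 0.16 at CT15, and was at 0.01 ± 0.04 at CT21 (SD, n = 3). P4ha1 was at 0.51 ± 0.19 at CT18, after 1.03 ± 0.04 at CT15. Both had their highest mean at CT15. Of the 17 risen members of the heat shock list, 12 were highest at CT15, 4 at CT18 (among them Hsp90aa1) and 1, Hspb1, at CT21. Arntl and Acmsd were higher still at later times, Arntl at 0.18 ± 0.07 at CT18 and 0.62 ± 0.11 at CT21, and Acmsd at 0.67 ± 0.13 and 0.72 ± 0.21. Nr1d1 was lower still at CT18, at -1.79 ± 0.16, and so was Dbp, at -0.72 ± 0.04, while Bhlhe41 was at 0.02 ± 0.10 there, level with its -0.05 ± 0.26 at CT15.

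**Figure D4:**
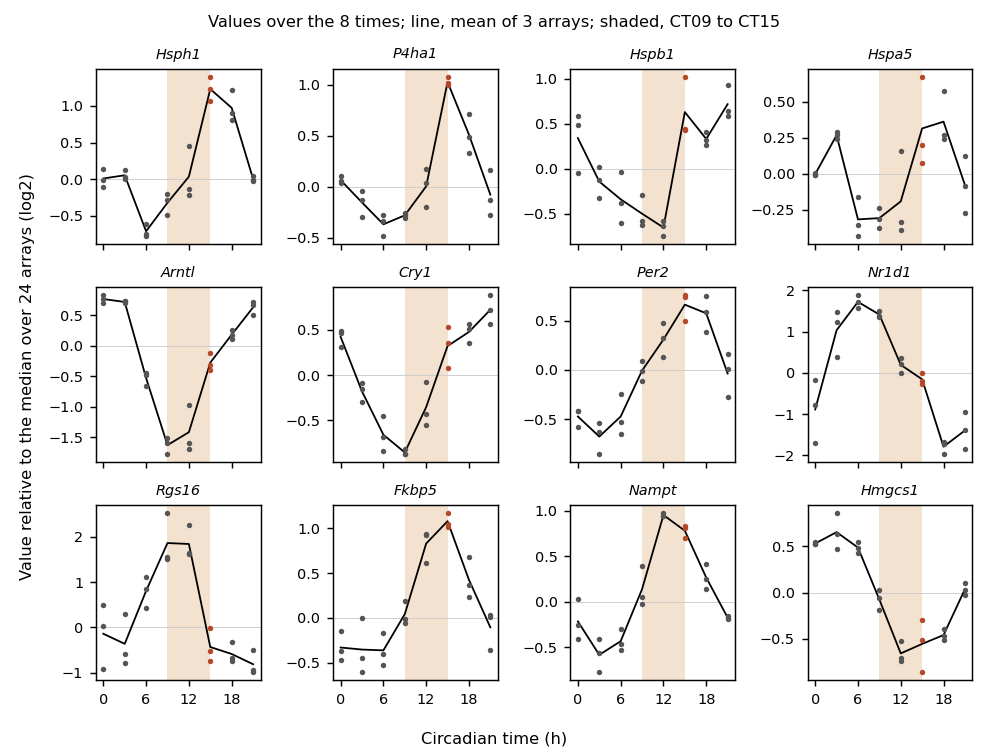
Each panel shows 1 gene over circadian time (h), with 3 arrays per time as points (CT15 in colour), the mean as a line and the interval from CT09 to CT15 shaded; the vertical axis is the value relative to the gene's median over 24 arrays (log2). Hsph1, P4ha1, Fkbp5 and Per2 have their highest mean at CT15, Nampt at CT12, and Arntl, Cry1 and Nr1d1 pass through CT15 on a longer rise or fall.

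In a pure sine wave of 24 h a step changes sign 12 h later, while a 24 h rhythm of another shape need not do so. CT15 minus CT09 was set beside CT03 minus CT21, which uses other arrays and called 46 genes higher and 18 lower (0.321%). Of the 629 risen genes, 13 were among those called lower in that step (0.0903% of all genes) and 1, Tubb5, among those called higher (0.231%). Of the 277 fallen genes, 11 were among those called higher and 0 among those called lower. By sign alone, 53.1% of the risen genes had a negative CT03 minus CT21 difference, against 52.3% of all genes, and 59.6% of the fallen genes had a positive one, against 47.7% of all genes. Nr1d1 swung back by 2.43 (adjusted p = 0.00099) against its difference of -1.57. Cry1 had -0.90 (0.0025) against 1.17, Hspb1 -0.86 (0.031) against 1.13, Acmsd -0.80 (0.019) against 1.19, and Thrsp -0.87 (0.019) against 0.68. Per2 (-0.64), Tsc22d3 (-0.58), Odc1 (-0.57) and Asl (-0.46) were called in that step too, all against rises, as were Hmgcs1 (0.62), Gabarapl1 (0.51) and Hsd3b7 (0.37) against falls. The calls of that step rested on single arrays. It had 1 gene called higher and 5 lower without CT21 replicate 3, and 7 and 5 without CT03 replicate 1. Which of the named genes kept their calls there is not given.

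The sum of both differences tests whether the steps cancel, and it differed from 0 for 154 genes above and 38 below (0.773% and 0.191%, 0.963% together). It cannot tell whether a gene has a 24 h rhythm, since only a sine wave must cancel. Genes of the main comparison were chosen by a difference that is part of the sum, so the sums are a description of them. The 10 with the smallest p were mainly chaperone genes. Hsph1 had a CT03 minus CT21 difference of 0.05 and a sum of 1.60 (adjusted p = 0.000658), P4ha1 one of -0.08 and a sum of 1.23 (0.000658), and Arntl one of 0.09 and a sum of 1.44 (0.000758). Their rise between CT09 and CT15 thus had no counterpart of like size in that other step. Stip1 (sum 0.88), Dnajb4 (0.91), Hspa8 (0.89), Ahsa2 (0.79), Dnajc18, a DNAJ family gene (0.72), Tubb5 (0.73) and P3h1 (0.54) completed them, all kept without any 1 of the 12 arrays involved (adjusted p up to 0.0357). Tubb5 was the only one of the 10 with both steps called, 0.28 and 0.44, in the same direction. Leaving out 1 array moved the counts of the sum between 27 and 405 above and between 4 and 270 below.

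**Figure D5:**
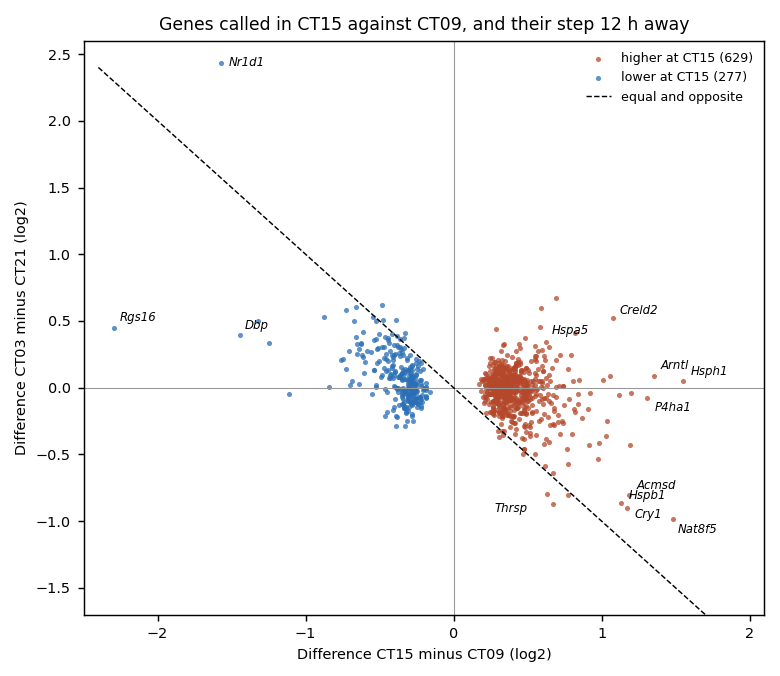
Each point is 1 of the 906 called genes, with CT15 minus CT09 (log2) on the horizontal axis and CT03 minus CT21 (log2), from other arrays, on the vertical axis; on the dashed line the steps are equal and opposite. Cry1 (1.17 and -0.90) and Nr1d1 (-1.57 and 2.43) have differences of opposite sign, while Hsph1 (1.55 and 0.05), P4ha1 (1.31 and -0.08) and Arntl (1.35 and 0.09) lie near 0 on the vertical axis.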

How the data were processed

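The deposited table holds log2 values of 28815 probe sets on 24 arrays, 3 at each of 8 times, made by the authors and given relative to the row median (0 within 5e-07 in every row, range -2.62 to 2.64). The log base is assumed from the size of the values, and no source used here gives the background correction, summarization or normalization. Centring removes levels, so a brightness class (4 to 8 or 8 to 16) was read from rounding steps, and arrays have no sequencing depth, so their number limits precision.

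Symbols came from the platform annotation, updated through Entrez identifiers (21689 found in RefSeq): 21780 probe sets had 1 symbol, 1605 several and 5430 none listed. Probe sets of 1 gene were averaged, which gave 19935 genes (998 with several probe sets). Means of the 8 times were fitted with limma 3.58.1 in R 4.3.3 on all 24 arrays, with empirical Bayes moderation and Benjamini-Hochberg adjustment over all genes at 0.05. Contrasts were CT15 minus CT09, both 3 h steps, CT03 minus CT21 and the sum of the first and the fourth. On simulated data of 19935 genes the CT15 minus CT09 test found 61% of 100 genes changed by 0.4 and 98% of 100 changed by 0.8, with 7 false calls. The simulated noise was normal, independent between genes and of equal spread on every array. The measured arrays differed in spread, so these figures need not hold for them.

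The comparison, the 35 gene lists (731 of 806 members tested), the 11 marker lists (100 of 117 tested) and the naming rule were chosen with earlier results of these data known. Lists are given by counts and medians. Named genes are the 15 largest called differences each way without overlap of the arrays, all clock genes, up to 5 members of every other list by smallest p, 10 called genes by the sum contrast and 6 by their CT12 mean. Promoter motifs were counted in RefSeq GRCm38.p6 windows of 300 bases (250 before, 50 after the start) as a description, with 150 upstream bases as alternative. Alternatives to the fit were leaving out each array, the 6 arrays alone, the replicate number as a block, median and quantile scaling, 1 probe set per gene, brighter probe sets only, array weights, robust moderation and stricter thresholds. After seeing the data, a small nucleolar RNA covariate (51 genes), leaving out the 3 farthest arrays and leaving out single CT12, CT03 and CT21 arrays were added.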

Additional observations from a re-analysis of the deposited data

Results flagged for a closer look

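Probe sets outside the comparison of genes carried signal too. Of 7035 probe sets with several symbols or with none listed, 93 passed an adjusted p of 0.05 in CT15 minus CT09 when fitted by limma in the same way (1.32%), 68 of them higher at CT15 and 25 lower. They were picked out because they lie outside the genes the report uses. No gene name is given to them, and the report's counts leave them out.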

How the results depend on the processing

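Of 105 named genes that were called, 17 kept the call under all alternatives run, 55 without any 1 of the 6 arrays, and 0 changed sign; 78 lost it with the 6 arrays alone and 35 under quantile scaling. Arrays whose loss moved the counts are named above. The cause of these moves was not tested, except that fewer arrays or genes enter some fits. Depth cannot be given for arrays, and dim genes have no known level.

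Counts of genes higher and lower at CT15, 629 and 277, became 49 and 17 with the 6 arrays alone, 268 and 123 after quantile scaling, 241 and 74 among brighter probe sets, 960 and 509 with array weights, 406 and 180 with the snoRNA average as covariate, 223 and 61 leaving out the 3 farthest arrays (both chosen after seeing the data), 91 and 29 at 1.5-fold and 216 and 58 at an adjusted p under 0.01. Without 1 array they ran from 234 to 1121 and from 96 to 518. CT12 minus CT09 (12 and 9) had 28 and 14 with the replicate block, 2 and 2 after quantile scaling, 4 and 5 among brighter probe sets, 233 and 157 with array weights, 1 and 0 with the covariate, and 0 to 121 and 0 to 69 without 1 array. CT15 minus CT12 (80 and 33) had 28 and 10 after quantile scaling, 34 and 18 among brighter probe sets, 126 higher with the covariate, and 24 to 111 and 5 to 51 without 1 array. CT03 minus CT21 (46 and 18) had 388 and 221 with array weights, 147 and 57 with the covariate, and 1 to 68 and 5 to 26 without 1 array. The sum (154 and 38) had 79 and 18 after quantile scaling, 71 and 2 among brighter probe sets, 673 and 539 with array weights, 58 lower with the covariate, and 27 to 405 and 4 to 270 without 1 array.

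Whether the labelled replicate numbers pair the livers could not be decided. Deviations from the means correlated at 0.206, -0.399 and -0.044 between same-numbered CT15 and CT09 arrays. Between arrays of different number they correlated at -0.388 to 0.424, and 3 arrays per time are too few to tell these apart. With the number as a block 746 genes were higher and 337 lower at CT15, and 0 of the 105 named calls were lost.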

Other observations

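The endothelial list had 3 called markers, the most among the cell type lists. Lyve1, a hyaluronan receptor of sinusoidal endothelium, had 0.68, 0.23 and 0.71 at CT15, against -0.30, 0.23 and -0.12 at CT09, so that 1 array of each time was almost level. Emcn, an endothelial sialomucin, had 0.28, 0.20 and 0.24 at CT15, against -0.32, -0.24 and -0.11 at CT09. Flt1, a receptor of vascular growth factors, had 0.24, -0.01 and 0.01 at CT15, against -0.27, -0.28 and -0.29 at CT09. Of the 11 markers 6 had every CT15 array above every CT09 array, as 8.48% of all genes did. These genes were named after their values were seen, and the calls of Lyve1 and Flt1 were lost without single arrays, up to adjusted p of 0.088 without CT09 replicate 1 for Lyve1 and 0.0663 without CT09 replicate 2 for Flt1.

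Among the lists without any call, the immediate early and stress genes with the smallest p were Junb (-0.28, adjusted p = 0.128), Egr3 (-0.22), Klf2 (-0.23), Jund (0.12) and Egr2 (-0.16). In the growth hormone axis they were Stat5a (-0.21, adjusted p = 0.0597), Igfals (0.39), Socs2 (0.42), Igfbp1 (-0.62) and Cux2 (-0.14). The hepatokine gene Nrg4 had 1.35, 0.68 and 1.12 at CT15, against 0.62 in each CT09 array, a difference of 0.43 (adjusted p = 0.107).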
